A study of Rattus norvegicus with 20 samples.

Results

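Mitochondrial ribosomal proteins are encoded by nuclear genes whose symbols begin with Mrpl, for the large subunit, or Mrps, for the small subunit. All probe sets with a single gene symbol of the form Mrpl or Mrps and a number were taken, 97 of the 31042 probe sets on the array that are not controls, a probe set being a group of probes for 1 transcript. They stand for 73 of 14217 genes, 46 of the large and 27 of the small subunit, and each gene is described by its brightest probe set. They were followed through 20 arrays of the right ventricle of male Sprague Dawley rats of about 350 g, 5 arrays in each of 4 groups. Rats of the PE2.0 groups had been given polystyrene microspheres of 25 micron through the right jugular vein, 2000000 per 100 g of body weight in a suspension of 13000000 per ml in 0.01% Tween-20, which models chronic pulmonary embolism (PE). Vehicle rats had been given 0.01% Tween-20 without microspheres. After 6 weeks the heart was flushed with buffer and the right ventricle was cut into apex and outflow tract (base), so that each treatment gave an apex group and an outflow group. The age of the rats was not stated. The titles call the samples biological replicates, and the growth text of all 20 speaks of vehicle, so groups follow the titles and the treatment text. The study text gives 0.01 ml per 100 g as the vehicle volume, against 0.15 ml in the sample text.

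Mitochondria keep their own ribosome, which translates the few messenger RNAs of mitochondrial DNA, all of them for membrane subunits of the respiratory chain and ATP synthase. Its RNA is made inside the organelle, whereas its proteins are translated in the cytosol and imported. Its proteins include descendants of bacterial ribosomal proteins and others found only in mitochondria. Heart muscle is rich in mitochondria, and inherited defects of several of these proteins, among them MRPL3, MRPL44 and MRPS22, are known causes of cardiomyopathy.

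The deposited signals are linear intensities, and differences are given as log2 fold changes of the signal plus 16 with the standard error (SE) of limma's model over 5 arrays per group. A gene was called at an adjusted p under 0.05 (limma, Benjamini-Hochberg over 31042 probe sets), and "rose" and "fell" are used of called genes. With 5 arrays in a group, their number sets the precision. The PE outflow arrays varied more than the others. Their ratio of 3' to 5' GAPDH control signal, which rises with short RNA, was 6.12 on replicate 2, 2.20 on replicate 4, 2.34 on replicate 5 and 1.70 to 1.71 on replicates 1 and 3, against 1.38 to 1.83 on the other 15 arrays. The summed signal of cardiomyocyte markers measured in all groups was 449260 to 540350 on the vehicle outflow arrays, 517890 on PE outflow replicate 2, and 192520 to 286150 on the remaining 4 arrays of that group. Counts are therefore also given with replicates 1 and 3 as the only PE outflow arrays.

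The first comparison asked how the outflow tract of PE rats differed from that of vehicle rats. Of the 73 genes 67 fell, 0 rose and 6 were not called, where 18% of all 14217 genes fell and 26.3% rose. The median difference of the members was -0.79, a 1.73-fold lower signal, beside a median of 0.10 over all genes, and 72 of 73 were below 0 (43.1% of all genes). Among the 46 large subunit genes 43 fell, with a median of -0.82, and among the 27 small subunit genes 24 fell, with a median of -0.77. In 55 genes, 36 of the large and 19 of the small subunit, every PE outflow array lay below every vehicle outflow array, which held for 12.7% of all genes. With replicates 1 and 3 as the only PE outflow arrays 63 members fell, where 14.2% of all genes did, with a median of -0.71. Of the 97 probe sets 83 fell, 53 of 58 for the large and 30 of 39 for the small subunit, against 14.9% of all probe sets.

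**Figure D1:**
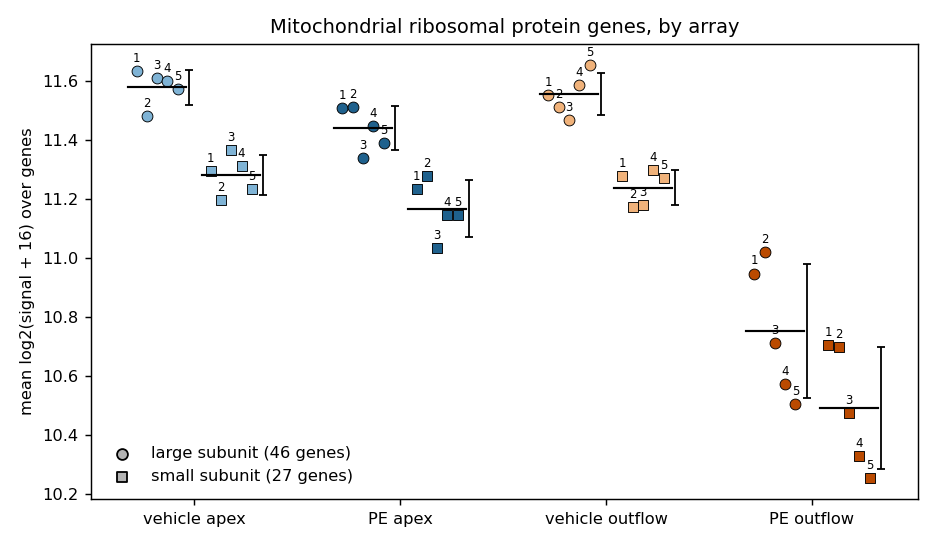
Mean log2(signal + 16) over the 46 large subunit genes (circles) and the 27 small subunit genes (squares) on each of the 20 arrays, by group; numbers are replicates, lines are group means and bars are 1 SD over 5 arrays. The PE outflow arrays, at 10.51 to 11.02 for the large and 10.25 to 10.70 for the small subunit, lie below all 15 other arrays.

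All 5 PE outflow arrays took part in the lower level, to unequal degrees. Averaged over the 73 genes, replicates 1 to 5 lay 0.58, 0.54, 0.81, 0.95 and 1.02 below the mean of the vehicle outflow arrays on the log2 scale. On these arrays 69, 59, 71, 72 and 71 of the 73 genes were below every vehicle outflow array. The share of all genes was not counted for single arrays, so these counts have no share to stand beside. The 12.7% of all genes that were lower on every PE outflow array met a stricter condition. Replicate 2 gave the highest PE outflow signal for 39 genes and replicate 1 for 32, while replicate 5 gave the lowest for 41 and replicate 4 for 20. The highest array was thus replicate 1 or 2 for nearly all genes, and no single array was the lowest for all.

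Mrpl3, a homologue of bacterial L3 at the heart of the large subunit, showed the largest fall of that subunit. Its signals on the vehicle outflow arrays were 6150, 4708, 5392, 6132 and 6206 for replicates 1 to 5, and on the PE outflow arrays 2683, 2196, 2508, 2008 and 1688. The groups did not overlap, and the signal was 2.59-fold lower (log2 -1.37 ± 0.13, SE, limma adjusted p = 3.86e-07). Mrpl15, a homologue of bacterial L15, had 7824, 8301, 8567, 8572 and 9125 in vehicle outflow and 4527, 3663, 3945, 2598 and 2422 in PE outflow. No array of either group reached the other, at a log2 change of -1.34 ± 0.14 (adjusted p = 8.19e-07). Mrpl50, a protein of the mitochondrial large subunit without a bacterial counterpart, fell from 3173 ± 253 (SD) to 1270 ± 309 (log2 -1.34 ± 0.14). Mrpl40 and Mrpl42, also particular to mitochondria, fell by 1.28 ± 0.14 and 1.15 ± 0.15 on the log2 scale, from 2704 ± 160 to 1135 ± 279 and from 7240 ± 886 to 3333 ± 904. Mrpl4, whose bacterial homologue L4 lines the exit tunnel of the growing peptide, fell from 4552 ± 767 to 2057 ± 364 (log2 -1.14 ± 0.15). The PE and vehicle outflow arrays did not overlap for any of these 4 genes.

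Mrps28 showed the largest fall of the small subunit. Vehicle outflow signals of replicates 1 to 5 were 2420, 1986, 2176, 2452 and 2182, and PE outflow signals were 1201, 855, 894, 692 and 713. All PE arrays were below all vehicle arrays, at 2.59-fold (log2 -1.37 ± 0.13, limma adjusted p = 2.65e-07). Mrps14, a homologue of bacterial S14 in the head of the subunit, had 6176, 6553, 6031, 6179 and 5166 in vehicle outflow and 3682, 2662, 2673, 3117 and 2265 in PE outflow. Its groups were also apart, with a log2 change of -1.07 ± 0.13 (adjusted p = 4.91e-06). Mrps27, an RNA-binding protein of the pentatricopeptide repeat family, fell from 985 ± 143 (SD) to 457 ± 101 (log2 -1.09 ± 0.16). Mrps35 fell from 2685 ± 138 to 1322 ± 427 (log2 -1.07 ± 0.17), and its highest PE outflow array was replicate 2, at 1997. Mrps9, the homologue of bacterial S9, fell from 2064 ± 282 to 1032 ± 358 (log2 -1.05 ± 0.20), with its lowest signal, 582, on replicate 2. The array that stood apart in its GAPDH ratio was thus the highest of its group for some members and the lowest for others.

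Of the 3 homologues of bacterial S18 2 fell and 1 was not called. Mrps18b fell from 3006 ± 297 (SD) to 1279 ± 327 (log2 -1.26 ± 0.15, limma adjusted p = 3.57e-06), and Mrps18c fell from 1725 ± 220 to 884 ± 235 (log2 -0.98 ± 0.19, adjusted p = 0.000437). Mrps18a, which sits in the large subunit despite its symbol, was at 1764 ± 337 and 1337 ± 250, with a difference of -0.40 ± 0.16 (adjusted p = 0.0626). It was not called in the main fit, and without PE outflow replicate 2 it was, at -0.49 (adjusted p = 0.0165). Several other settings with all arrays called it too. Among them were quantile normalization, at -0.42 (adjusted p = 0.0484), and median centring, at -0.53 (adjusted p = 0.0179). The difference between the 3 genes was not tested.

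**Figure D2:**
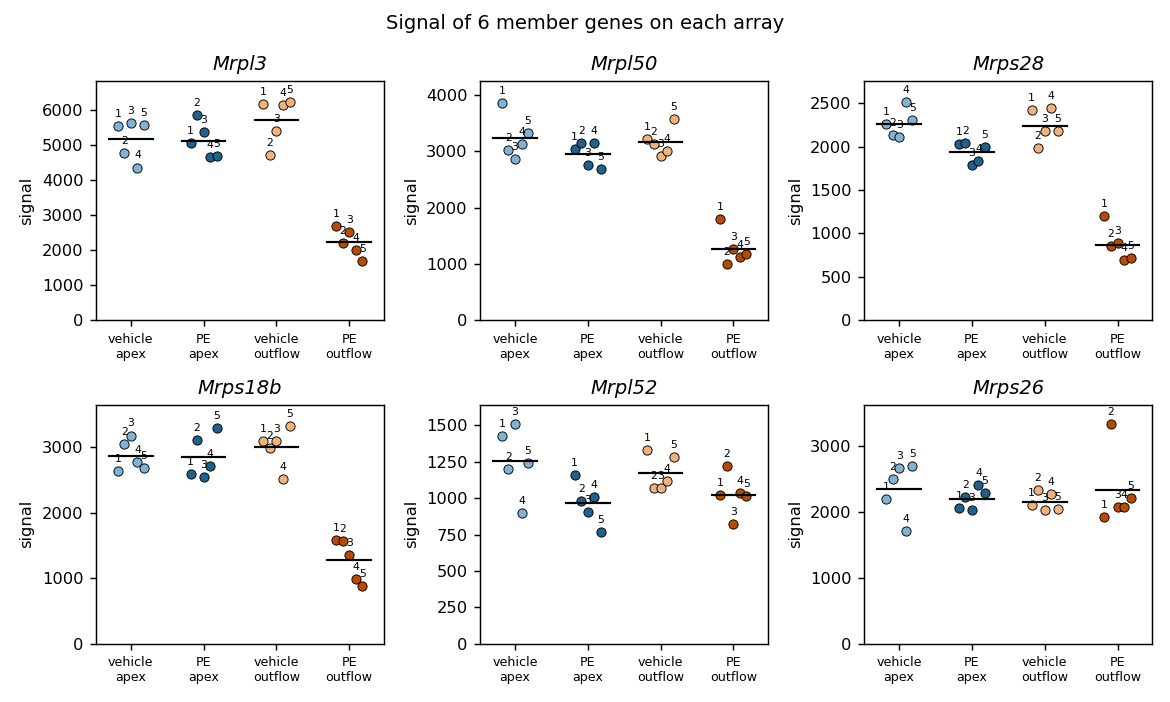
Signal of 6 genes on each of the 20 arrays, on a linear axis from 0; points are arrays with their replicate number and lines are group means. In Mrpl3, Mrpl50, Mrps28 and Mrps18b the PE outflow arrays lie below all others, whereas in Mrpl52 and Mrps26 they overlap the vehicle outflow arrays.

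Members known from disease or from well-described functions fell as well. Mrpl44, which resembles a ribonuclease and is mutated in an infantile cardiomyopathy, had 1696, 1641, 1647, 1851 and 2239 in vehicle outflow and 1157, 1111, 918, 708 and 774 in PE outflow, with no overlap (log2 -0.96 ± 0.14, limma adjusted p = 1.85e-05). Mrps16 fell from 5104 ± 427 (SD) to 2704 ± 371 (log2 -0.92 ± 0.12) and Mrps12, the homologue of the S12 protein of the decoding centre, from 1709 ± 109 to 1131 ± 179 (log2 -0.60 ± 0.11). Mrps22 fell from 1131 ± 104 to 656 ± 127 (log2 -0.79 ± 0.12) by its brightest probe set. Mrpl12 forms the stalk to which translation factors bind. It had 7654, 6813, 7139, 7399 and 8090 in vehicle outflow and 4521, 9325, 3840, 2684 and 2677 in PE outflow. Replicate 2 was the highest of the 10 arrays and the other 4 PE arrays were below all vehicle arrays. The change was -0.85 ± 0.23 (adjusted p = 0.0071) with all arrays and -1.14 ± 0.14 (adjusted p = 3.18e-06) without replicate 2. Mrpl17 and Mrpl14, whose probe sets had the highest and the lowest mean signal, fell by 0.93 ± 0.12 each.

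The 6 genes that were not called were Mrpl10, Mrpl48, Mrpl52, Mrps6, Mrps18a and Mrps26. Mrps26 was the only member whose difference was above 0 in the outflow tract, at 0.08 ± 0.15 (limma adjusted p = 0.727). Its signals were 2102, 2327, 2019, 2270 and 2041 in vehicle outflow and 1915, 3336, 2079, 2072 and 2213 in PE outflow, so the groups overlapped apart from replicate 2, the highest. Without that array the difference was -0.06. Mrpl52 had -0.20 ± 0.15 (adjusted p = 0.323) and Mrps6, the homologue of bacterial S6, had -0.15 ± 0.11 (adjusted p = 0.326). Mrpl48 had -0.34 ± 0.15 (adjusted p = 0.0796), which became a call of -0.45 (adjusted p = 0.0141) without PE outflow replicate 2. Several settings with all arrays called Mrpl48 too, among them median centring, at -0.48 (adjusted p = 0.0127). Mrpl10, which anchors the stalk, had -0.27 ± 0.12 (adjusted p = 0.106) by its brightest probe set and -1.44, a call, by the other. The brightest probe set of Mrpl10 was called under quantile normalization (adjusted p = 0.038) and median centring (adjusted p = 0.0214), and Mrps6 under median centring (adjusted p = 0.0486).

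Several probe sets measured 18 of the 73 members, 42 probe sets in all. In 10 of these genes every probe set fell, and in 2, Mrpl52 and Mrps26, none was called. In the other 6 the probe sets disagreed. They were Mrpl10, Mrpl57 (-0.72 and -0.11), Mrps15 (-0.77 and -0.44), Mrps18c (-0.98 to -0.03), Mrps22 (-0.79 and 0.29) and Mrps24 (-0.56 and 0.09). Apart from Mrpl10, the brightest probe set was the called one. For these genes the fall holds for the called probe set only. The uncalled probe sets were dim in Mrps22, at a mean signal of 24.1, and Mrps24, at 93.7. In Mrps15, Mrpl57 and Mrps18c they were at 199, at 290, and at 24.5 and 317. The second probe set of Mrps26 was at 4.33. Log2 changes of signal plus 16 are understated at such low signals.

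**Figure D3:**
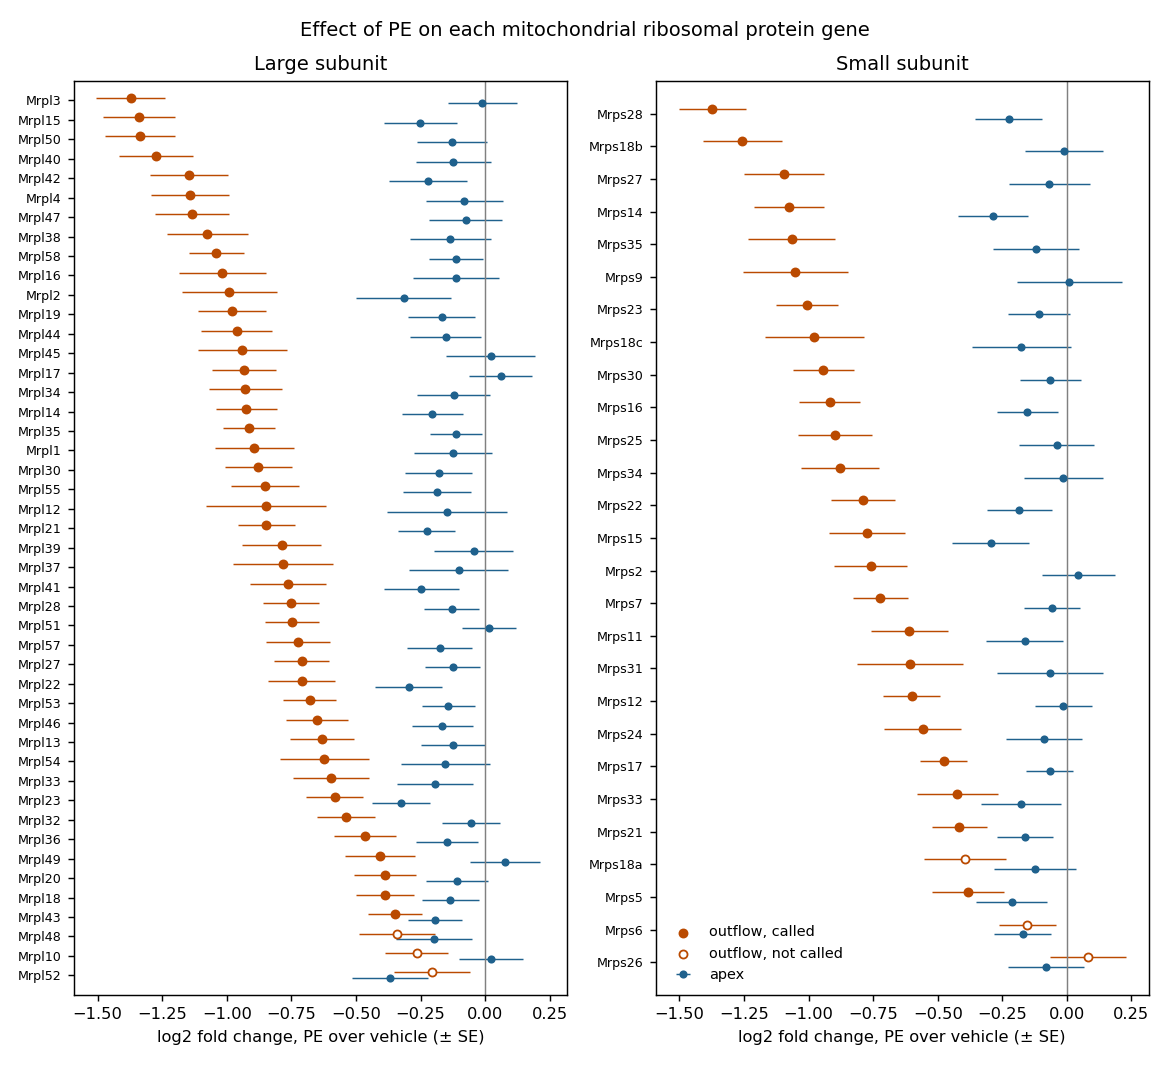
Log2 fold change of PE over vehicle with its SE for each of the 73 genes, large subunit left and small subunit right, in the outflow tract (orange, filled where called) and in the apex (blue). In the outflow tract the values run from -1.37 to 0.08, and in the apex from -0.37 to 0.08, with no gene called.

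The upstream sequence of 4 members is shown. Mrpl3, Mrps18b and Mrps14 are among the largest falls of their subunits and Mrps26 was not called, so changes near the median are not represented. All 4 hold a motif, which 30 of 59 member promoters did. Each run holds the 150 bases before the annotated start of the gene and the 30 after it, 5' to 3' on the strand of the gene, from RefSeq's GRCr8 rat assembly. The positions are chr8:114548820-114548999 for Mrpl3, chr20:2842856-2843035 for Mrps18b, chr13:74962447-74962626 for Mrps14 and chr3:138222174-138222353 for Mrps26, all on the plus strand. Capitals mark matches to 3 short motifs on either strand, the NRF1 core (the 10 capitals in Mrps18b, which read the same on both strands), the ETS core CCGGAAG bound by GABPA (CTTCCGG on the other strand) and the YY1 core AANATGGCG.
Mrpl3: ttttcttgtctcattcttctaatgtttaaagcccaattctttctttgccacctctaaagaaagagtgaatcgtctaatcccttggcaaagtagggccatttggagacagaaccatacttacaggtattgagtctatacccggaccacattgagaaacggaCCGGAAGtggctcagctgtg
Mrps18b: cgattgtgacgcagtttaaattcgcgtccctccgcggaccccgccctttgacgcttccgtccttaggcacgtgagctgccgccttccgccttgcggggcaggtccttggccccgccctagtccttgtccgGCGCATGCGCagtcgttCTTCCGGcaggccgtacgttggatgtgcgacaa
Mrps14: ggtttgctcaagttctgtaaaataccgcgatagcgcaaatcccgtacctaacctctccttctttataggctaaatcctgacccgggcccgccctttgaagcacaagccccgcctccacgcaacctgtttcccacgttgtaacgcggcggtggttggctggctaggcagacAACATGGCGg
Mrps26: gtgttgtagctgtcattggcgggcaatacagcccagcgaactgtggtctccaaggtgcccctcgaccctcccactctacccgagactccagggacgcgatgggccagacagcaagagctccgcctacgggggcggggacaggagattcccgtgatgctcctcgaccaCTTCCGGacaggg
In Mrpl3 the ETS core lies at bases 11 to 17 from the start, and in Mrps26 at bases 18 to 24. Mrps18b has the NRF1 core at -20 to -11 and an ETS core at -3 to 4, and Mrps14 the YY1 core at 21 to 29. A promoter entry, of 250 bases before to 50 after the start, was matched by gene identifier for 59 of the 73 members. The ETS core was in 20 of these (33.9%), against 15.1% of 11700 promoters of measured genes and 9.22% of 27457 promoters in all. The YY1 core was in 12 (20.3%, against 5.34% and 3.33%) and the NRF1 core in 4 (6.78%, against 1.62% and 0.932%). At least 1 of the 3 was in 30 member promoters (50.8%), in 20.3% of promoters of measured genes and in 12.5% of all. In the large and small subunits these shares were 34.2% and 33.3% for the ETS core and 21.1% and 19.0% for the YY1 core. The median change in the outflow tract was -0.64 in the 20 members with the ETS core and -0.79 in the 39 without it. With the YY1 core it was -0.92 in 12 members and -0.75 in the 47 without, and with the NRF1 core -0.95 in 4 members and -0.76 in 55. These matches describe the letters in the window and were not tested against the expression values.

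Many members share their start region with a neighbour on the opposite strand. In the GRCr8 gene table, 18 of the 59 members (30.5%) had a gene that starts within 1000 bases and runs the other way, against 13.8% of measured genes. Mrpl46 and Mrps11, of different subunits, start 234 bases apart on chromosome 1 and fell by 0.65 ± 0.12 and 0.61 ± 0.15. Mrpl47 and Ndufb5, a subunit of respiratory complex I, start 244 bases apart and fell by 1.13 ± 0.14 and 1.25 ± 0.21. Mrps27 and Ptcd2 start 91 bases apart, and Ptcd2, which encodes a mitochondrial RNA-processing protein, fell by 0.98 ± 0.14. Such agreement was not general. Of the 14 measured neighbours 6 fell, 6 were not called and 2 rose, with a median of -0.33, where 18% of all genes fell and 26.3% rose. Mrpl46 and Mrps11, each counted as neighbour of the other, are among the 6 that fell. The risers were Mitd1, at 0.65 ± 0.15 beside Mrpl30 at -0.88, and Ncapd2, a condensin subunit, at 0.51 ± 0.12 beside Mrpl51 at -0.75. Neighbours were named after their values were seen.

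Other nuclear genes for mitochondrial gene expression were followed in lists. The ribosomal proteins with other symbols, 5 of 6 measured, all fell in the outflow tract, with a median of -0.60 (18% of all genes fell). They were Ptcd3, Chchd1, Aurkaip1, Dap3 and Gadd45gip1, at -0.56 to -0.64. Of 25 measured factors of ribosome assembly and RNA modification 15 fell, 2 rose and 8 were not called, with a median of -0.69. Oxa1l, which inserts newly made proteins into the inner membrane, fell from 4099 ± 545 (SD) to 2088 ± 373 (log2 -0.98 ± 0.13), and C1qbp, a matrix protein needed for mitochondrial translation, from 9816 ± 936 to 5024 ± 1072 (log2 -0.99 ± 0.16). Malsu1 and Nsun4, which act in large subunit assembly, fell by 0.90 ± 0.12 and 0.95 ± 0.13. Mpv17l2, which is associated with ribosome assembly, rose from 509 ± 39.6 to 748 ± 87.2 (log2 0.54 ± 0.10), and Eral1, a chaperone of the small subunit RNA, rose at signals of 3.56 to 55.3, near the bottom of the scale; both were named after their values were seen.

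Of 14 measured translation factors 10 fell and 0 rose, with a median of -0.64, where 18% of all genes fell and 26.3% rose. Tufm, the elongation factor that brings aminoacyl-tRNA to the ribosome, fell from 6987 ± 956 (SD) to 3006 ± 1034 (log2 -1.28 ± 0.18, limma adjusted p = 2.19e-05). Gfm1, the translocase, fell by 1.08 ± 0.17, the release factor Mtrf1 by 1.17 ± 0.27, and Lrpprc, which stabilises mitochondrial messenger RNAs, by 0.88 ± 0.15. Of 16 measured genes that charge mitochondrial tRNAs 13 fell and 0 rose, with a median of -0.66. Qrsl1 and Gatb, subunits of the enzyme that makes glutamine-charged tRNA, fell by 1.11 ± 0.13 and 0.93 ± 0.16, and the tRNA synthetases Iars2 and Hars2 by 0.79 ± 0.12 and 0.62 ± 0.12. Of 19 genes for mitochondrial DNA upkeep, transcription and RNA processing 12 fell and 0 rose, with a median of -0.52. Hsd17b10, a dehydrogenase that is also a subunit of mitochondrial ribonuclease P, fell from 14261 ± 1301 to 5327 ± 1342 (log2 -1.45 ± 0.14). The transcription factors Tfb2m and Tefm fell by 0.86 ± 0.11 and 1.05 ± 0.16, and the helicase Supv3l1 by 0.93 ± 0.13. Polg, the catalytic subunit of the mitochondrial DNA polymerase, was not called, at 0.04 ± 0.12 (adjusted p = 0.86), and is outside the naming rule.

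Among 9 regulators of mitochondrial biogenesis 4 fell, 0 rose and 5 were not called, where 18% of all genes fell. The median of the list was 0.16, since all 5 uncalled genes had differences above 0. It depended on the scaling, at 0.01 under quantile normalization and 0.02 after centring. Esrra, a nuclear receptor of oxidative metabolism genes, fell from 1544 ± 303 (SD) to 499 ± 182 (log2 -1.66 ± 0.20, limma adjusted p = 2.75e-06). The coactivators Ppargc1a and Ppargc1b fell by 1.40 ± 0.23 and 1.41 ± 0.24, and Esrrg by 0.97 ± 0.21. The genes of the factors whose motifs are given above were not called. Gabpa had 0.20 ± 0.15, Gabpb1 0.22 ± 0.10, Yy1 0.18 ± 0.10 and Nrf1 0.48 ± 0.19 (adjusted p = 0.358, 0.114, 0.209 and 0.0553). They are shown because the motif search named them.

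Respiratory chain genes, whose products are assembled with those made by this ribosome, also fell. Of 36 genes taken as complex I by their Nduf symbols 35 fell, with a median of -1.17. Of 39 genes of complexes III to V 34 fell and 1 rose, with a median of -0.85. Under quantile normalization 34 of complex I fell (median -0.89) and 32 of complexes III to V (median -0.54). The Nduf gene that was not called was Ndufa4l2, which is in the set by its symbol and need not be a subunit of complex I. The riser was Cox6b2, a testis-type subunit of cytochrome c oxidase, at 2.62 (limma adjusted p = 2.69e-05). Of 45 genes for proteins of the cytosolic ribosome 40 were not called, 4 rose and 1 fell, where 26.3% of all genes rose. The median was 0.15, but these calls depend on the scaling of the arrays. Under quantile normalization 32 rose and 1 fell, and with each array centred on its median 1 rose and 4 fell, so no direction is given for them as a group. The fall of Rpl3l, a striated-muscle form of Rpl3, at -2.29 (adjusted p = 1.29e-06), and the rise of Rpl3, at 1.04 (adjusted p = 4.53e-07), were called under all 3 scalings, whereas Rpl4, Rps23 and Rps28 were not called after centring. These genes were named after their values were seen. Under quantile normalization and centring 67 and 71 members of the mitochondrial ribosome fell, with medians of -0.75 and -0.92. Of all 14217 genes 2825 and 3160 fell under these scalings, against 2555 in the main fit.

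**Figure D4:**
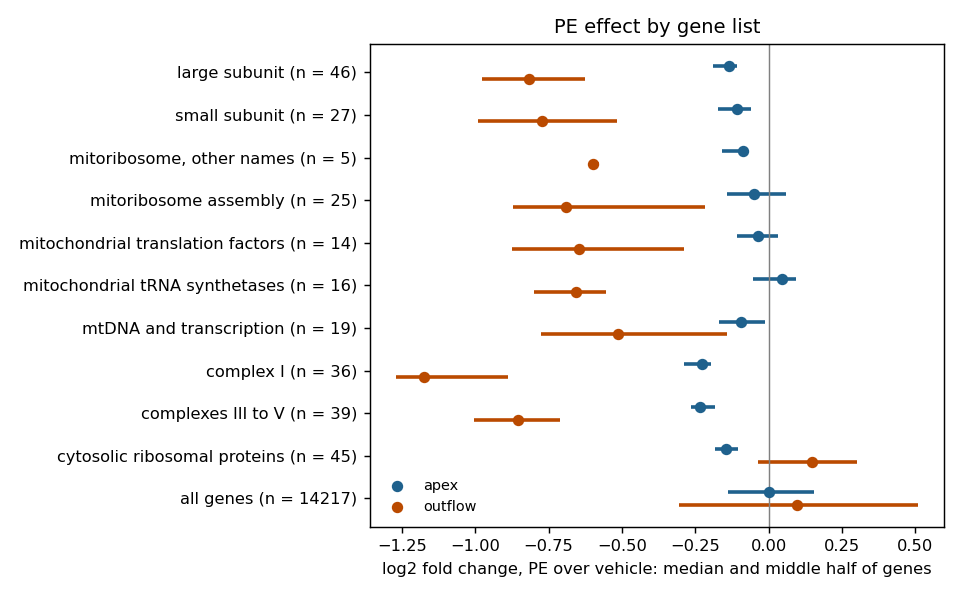
Median (point) and interquartile range (bar) of the log2 fold change of PE over vehicle, in the apex (blue) and the outflow tract (orange), for both ribosomal subunits, other lists of mitochondrial genes, cytosolic ribosomal proteins and all 14217 genes. The outflow medians of both subunits and of the 7 other mitochondrial lists drawn are at -0.52 or lower, against 0.15 for cytosolic ribosomal proteins, whose position depends on the scaling, and 0.10 for all genes.

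Markers of cell types moved in the same comparison, where 18% of all genes fell and 26.3% rose. Of 13 measured cardiomyocyte markers 12 fell, with a median of -0.88. Under quantile normalization 9 of them fell, with a median of -0.55, beside -0.75 for the members. Of the other lists, 9 of 10 fibroblast markers rose (median 1.42), 8 of 8 macrophage markers rose (median 1.31) and 4 of 4 measured chondrocyte markers rose (median 2.89). Schwann cell markers rose in 3 of 3 (median 1.95), smooth muscle markers in 4 of 6 with 1 lower (median 2.20), and adipocyte markers in 3 of 5 with 1 lower (median 3.15). Of 7 endothelial markers 2 rose and 1 fell (median 0.01), and of 5 lymphocyte markers 2 rose (median 0.85). Under quantile normalization and under centring 0 lymphocyte markers rose, and under quantile normalization 0 adipocyte markers fell. The summed signal of the fibroblast markers was 69276 to 101190 in vehicle outflow and 173530 to 200440 in PE outflow, that of the macrophage markers 5518 to 6367 and 7378 to 21702, and that of the chondrocyte markers 79.9 to 195 and 600 to 5539. Fewer cardiomyocytes and less RNA per cardiomyocyte cannot be told apart in tissue RNA, and the part of cell composition in the fall of the members was not tested. On PE outflow replicate 2, the array with the highest GAPDH ratio, the cardiomyocyte sum of 517890 lay within the vehicle range. The members had a mean log2 difference of -0.54 from the vehicle outflow arrays there. That array also had the lowest macrophage sum of its group, 7378 against 15510 to 21702 on the other 4, and the lowest chondrocyte sum, 600 against 2396 to 5539. Its brightest probe set reached 112199, against 41278 to 48010 on those 4. With the GAPDH ratio as a covariate 66 members fell, a count given without the share of all genes under that model. The part of short RNA in the fall was not tested.

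**Figure D5:**
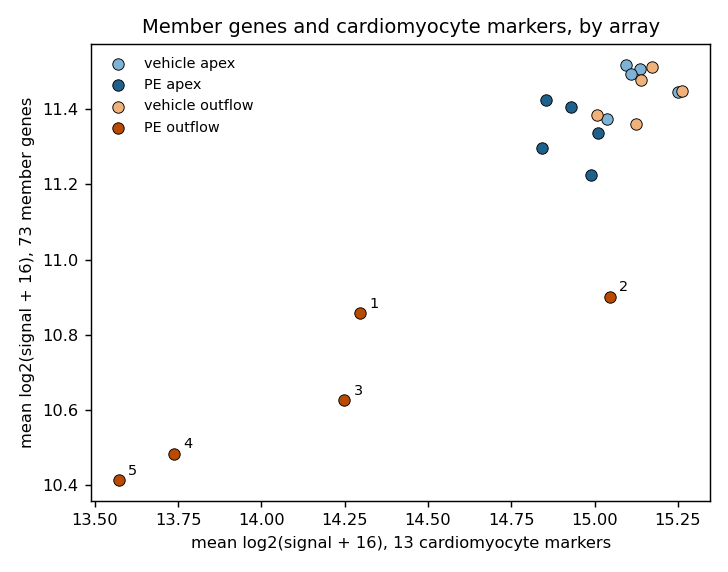
Mean log2(signal + 16) of the 73 member genes against that of 13 cardiomyocyte markers, 1 point per array, coloured by group, with the replicate number beside the PE outflow arrays. The 15 other arrays lie together at the upper right, and PE outflow replicate 2 has a marker mean among theirs with a member mean of 10.90, below all of them. That replicate had the highest GAPDH ratio.

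The second comparison asked the same of the apex, where 0 of the 73 members were called. Over all genes 0% fell and 0.0211% rose there, so the test called almost nothing in this region. At an unadjusted p under 0.05 there were 4 members, all of them lower (3.1% of all genes were lower and 8.29% in either direction). The differences were small but mostly on 1 side of 0. The median was -0.13, beside 0.00 over all genes, and 66 of 73 members were below 0, against 49.5% of all genes. The medians were -0.13 for the large and -0.11 for the small subunit. The cytosolic ribosomal proteins had a similar median of -0.15, complex I had -0.23 and complexes III to V -0.23, with 0 called in each. Under quantile normalization these medians were -0.02, -0.10 and -0.06, and that of the members was -0.11. Mrpl23 had the smallest p, with 3274, 3140, 3126, 3656 and 3120 in vehicle apex and 2796, 2695, 2503, 2528 and 2467 in PE apex. The groups did not overlap, but the difference of -0.33 ± 0.11 did not pass adjustment (limma adjusted p = 0.462). Mrpl52, Mrpl22 and Mrps14 followed, at -0.37 ± 0.15, -0.30 ± 0.13 and -0.29 ± 0.13 (adjusted p = 0.574, 0.613 and 0.658). In 4 members, Mrpl15, Mrpl22, Mrpl23 and Mrps28, all PE apex arrays were below all vehicle apex arrays, against 2.19% of genes. Cardiomyocyte markers had a median of -0.20 in the apex with 0 of 13 called, and of -0.025 under quantile normalization. Their summed signal was 457710 to 531130 in vehicle and 398240 to 455830 in PE rats, and its part in these differences was not tested.

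The third comparison tested the difference between both PE effects, outflow minus apex. In 45 of 73 members, 28 of the large and 17 of the small subunit, the PE effect was lower in the outflow tract, against 10.2% of all genes, and in 0 it was higher, against 14.1%. The median difference was -0.68, with -0.68 for the large and -0.67 for the small subunit, beside 0.10 over all genes. With replicates 1 and 3 as the only PE outflow arrays 38 members were called (8.04% of genes). Mrpl3 had the largest difference, at -1.36 ± 0.19 (limma adjusted p = 0.000271). Its apex signals were 5532, 4759, 5629, 4351 and 5551 in vehicle and 5060, 5858, 5360, 4655 and 4670 in PE rats, which overlap, at -0.01 ± 0.13. Mrpl50, Mrpl40 and Mrpl15 followed in the large subunit, at -1.21 ± 0.19, -1.15 ± 0.20 and -1.09 ± 0.20. In the small subunit Mrps18b had -1.25 ± 0.22 (adjusted p = 0.000971), Mrps28 -1.15 ± 0.18, Mrps9 -1.06 ± 0.29 and Mrps27 -1.03 ± 0.22. Mrps9 was no longer called with replicates 1 and 3 alone, at -0.62, nor with the GAPDH ratio as a covariate, at -0.59. Among regulators, Esrra (-1.62 ± 0.28), Ppargc1a (-1.08 ± 0.32), Ppargc1b (-1.11 ± 0.33) and Esrrg (-0.91 ± 0.30) were also called lower.

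The regions were then compared within each treatment. In vehicle rats 0 of 73 members were called between outflow tract and apex, where 0% of all genes were called in either direction. At an unadjusted p under 0.05 there were 0 members and 3.14% of genes. The median was -0.03, and 42 members were below 0 against 51.2% of genes. The smallest p-values belonged to Mrps31 (-0.38 ± 0.21), Mrpl18 (-0.20 ± 0.11), Mrpl33 (-0.24 ± 0.15) and Mrpl10 (0.20 ± 0.12), all with a limma adjusted p of 1. In PE rats 61 members were lower in the outflow tract, 41 of the large and 20 of the small subunit, and 0 were higher, against 15.5% of genes lower and 22.3% higher. In 52 of them the arrays did not overlap (11.1% of genes). The median was -0.69. This comparison and the first share the 5 PE outflow arrays. With replicates 1 and 3 alone 54 members were called (11.1% of genes).

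Mrps9 had the largest regional difference in PE rats, at -1.30 ± 0.20 (limma adjusted p = 8.54e-05). Its PE apex signals were 2733, 2502, 2325, 1962 and 2780, and its PE outflow signals 1531, 582, 1164, 1057 and 824, so the regions did not overlap. Mrpl50 was next at -1.23 ± 0.14, from 3036, 3141, 2762, 3150 and 2678 in PE apex to 1796, 1004, 1265, 1116 and 1169 in PE outflow, again apart. Mrpl3, Mrpl40, Mrpl42, Mrpl15 and Mrpl47 had -1.22 to -1.03 in the large subunit. In the small subunit Mrps18b had -1.18 ± 0.15, Mrps28 -1.16 ± 0.13, Mrps27 -1.04 ± 0.16, Mrps31 -0.93 ± 0.21 and Mrps30 -0.91 ± 0.12. Mrps30 is a protein of the large subunit despite its symbol.

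The subunits were set against each other by medians and counts, since their members are not replicates. In PE outflow the medians of -0.82 and -0.77 stood close, and their order turned under quantile normalization, at -0.74 for the large and -0.82 for the small subunit, so no order is given. With Mrps30 and Mrps18a counted in the large subunit the medians stayed at -0.82 and -0.77. On each array the mean log2 signal of the large subunit genes lay above that of the small subunit genes by 0.24 to 0.34 in vehicle apex, 0.23 to 0.31 in PE apex, 0.28 to 0.38 in vehicle outflow and 0.24 to 0.32 in PE outflow. These ranges overlap between all 4 groups, and the offset itself depends on the probes of each set. Between the outflow groups the overlap came from replicate 2, the PE array with the highest GAPDH ratio, at 0.32. PE outflow replicates 1, 3, 4 and 5 had 0.24, 0.24, 0.24 and 0.25, below every vehicle outflow array. A shift of the offset was not tested. Of the 6 members that were not called, 3 carry Mrpl and 3 Mrps symbols.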

How the data were processed

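Signals of 31099 probe sets on 20 rat arrays were taken from the deposited table. The deposited values are positive intensities on a linear scale, judged from their range. How the authors computed them, with which software and settings, is not given in the sources used. Every array had the same mean after trimming 2% at either end, so the authors had scaled them. The 57 control probe sets were left out of the tests. Platform annotation gave 1 gene symbol for 20826 of the others, several for 436 and none for 9780.

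From there, log2(signal + 16) was fitted with limma 3.58.1 in R 4.3.3 as 4 group means over 20 arrays with moderated variances (eBayes). The 5 contrasts were tested two-sided and adjusted over 31042 probe sets. Fold changes are on that scale, which understates those of dim genes. Each gene is its probe set with the highest mean log2 signal. All 73 members lay at or above the 80.9th percentile of mean signal, so no filter on dim probe sets removed any. The fit was tested on simulated data. Alternatives were other scaling, pseudocounts, filters, variance models, array weights, the GAPDH ratio as covariate, subsets of arrays and a block for the rat.

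Same-numbered apex and outflow arrays of a treatment were read as the same rat, from the shared number and the data, since the labels do not state it. In the 12310 brightest probe sets (mean log2 above 8) their deviations from group means correlated at 0.181 to 0.275 in vehicle and 0.181 to 0.283 in PE rats, each highest with its own number. The numbers do not pair PE with vehicle rats. No pair of arrays held identical values.

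Named members are the called ones with the largest change (up to 6 per subunit in PE outflow and in the regional comparison of PE rats, 4 per subunit for the difference), the 4 smallest p where under 4 were called, 9 index members, those with the highest and lowest signal, those not called in PE outflow, those whose probe sets disagree, and up to 4 per other list. The members, the lists and these rules were chosen with earlier results of these data known, so they are descriptions and not independent support. Motifs were searched with Python 3.11.15.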

Additional observations from a re-analysis of the deposited data

Results flagged for a closer look

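Of 144 sets of 5 arrays over 36 named members, 11 held an array far from the other 4 by Dixon's rule. Chance alone marks about 1 in 20 such sets. In PE outflow there were 2, both on replicate 2, the array with the highest GAPDH ratio: Mrps26 at 3336 with the others at 1915 to 2213, and Mrps24 at 3269 with the others at 1815 to 2057. In PE apex Mrpl33 and Mrpl47 were low on replicate 5 (7184 and 1516), and Mrpl4 and Mrps27 were low on replicate 3 (2962 and 713). In vehicle outflow Mrpl17 was high (12797) and Mrpl33 low (5270) on replicate 5, and Mrps22 was high (1315) on replicate 4. In vehicle apex Mrpl10 (684) and Mrps35 (2182) were low on replicate 4.

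The PE effect differed between outflow tract and apex, by the tested difference, in 22 of the 36 named members, always more negative in the outflow tract. Of all 14217 genes 10.2% were called lower by this difference and 14.1% higher. Some members were named for the size of this difference, so the count of 22 is partly set by that choice. In log2 units the difference was called for Mrpl3 (-1.36), Mrpl50 (-1.21), Mrpl40 (-1.15), Mrpl15 (-1.09), Mrpl4 (-1.06), Mrpl47 (-1.06), Mrpl17 (-0.99), Mrpl42 (-0.93), Mrpl44 (-0.81), Mrpl14 (-0.72) and Mrpl57 (-0.55) of the large subunit. In the small subunit it was called for Mrps18b (-1.25), Mrps28 (-1.15), Mrps9 (-1.06), Mrps27 (-1.03), Mrps35 (-0.95), Mrps30 (-0.88), Mrps18c (-0.80), Mrps14 (-0.79), Mrps16 (-0.77), Mrps22 (-0.61) and Mrps12 (-0.59). The limma adjusted p-values ran from 0.000271 for Mrpl3 to 0.0451 for Mrps18c. The calls of Mrpl57 and Mrps18c were lost in many alternatives. With replicates 1 and 3 as the only PE outflow arrays those of Mrps9, Mrps14 and Mrps22 were lost too. That of Mrps9 was also lost with the GAPDH ratio as a covariate, and that of Mrps22 when probe sets were averaged.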

How the results depend on the processing

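Across 14 other settings the counts of members called were 59 to 71 in PE outflow, 38 to 56 for the difference, 54 to 66 between the regions of PE rats, and 0 in the apex and between the regions of vehicle rats. With the rat as a random replicate block the counts in the same order were 67, 47, 61, 0 and 0. With the rat as a fixed block, possible where regions are compared, they were 42 for the difference and 59 for the regions of PE rats. The PE outflow median of the small subunit moved to -0.61 when all probe sets of a gene were averaged, and the values of the disagreeing probe sets given for 6 genes enter there. With single arrays left out, the counts were 63 to 68 (PE outflow), 41 to 55 (difference) and 58 to 64 (regions, PE rats). The large and small subunit medians were then -0.89 to -0.73 and -0.87 to -0.69 (PE outflow), -0.76 to -0.59 and -0.74 to -0.61 (difference), -0.79 to -0.60 and -0.81 to -0.61 (regions, PE rats), -0.16 to -0.12 and -0.14 to -0.07 (PE apex), and -0.06 to -0.02 and -0.06 to 0.00 (regions, vehicle rats). Centring moved the median of all probe sets in PE outflow from 0.05 to -0.08 and the called split from 6083 higher and 4637 lower to 4415 and 5966. Quantile normalization gave 5177 and 5367. Of all 14217 genes 2555 fell in PE outflow in the main fit, and 2017 with replicates 1 and 3 as the only PE outflow arrays. Under quantile normalization 2825 fell, and after centring 3160. For the remaining settings, the blocks for the rat and the fits without single arrays, the counts of members are given without a share of all genes. Of 4320 alternative values of named members 4209 stayed as they were, called or not called, 56 lost a call, 55 gained one and 0 changed the direction of a call. Of 80 called values 14 were lost at least once. The PE outflow calls lost were those of Mrpl12, Mrpl18 and Mrps31 when only the compared groups were fitted, of Mrpl18 under quantile normalization, of Mrps22 and Mrps24 when probe sets were averaged, and of Mrps31 without vehicle outflow replicates 1 or 4 or PE outflow replicates 3, 4 or 5 (-0.59 to -0.50). The cause was not tested.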
